A study of Mus musculus with 4 samples.

Results

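Glycolysis splits glucose into pyruvate in the cytosol, pyruvate enters mitochondria through a carrier, and the pyruvate dehydrogenase complex turns it into the acetyl units that the citric acid cycle oxidizes. In pancreatic beta cells this route couples blood glucose to insulin release. Little pyruvate is diverted to lactate, and shuttles carry the electrons of glycolytic NADH into mitochondria. The genes described here are 34 enzymes and carriers of that route, of 52636 genes in the deposited table. They were listed by symbol as the isoforms that dominate in islets, and Hk1, Hk2 and Aldoc had the lowest levels of the 34. They comprise 16 genes of glycolysis, from hexokinase to lactate dehydrogenase B, and 18 mitochondrial-side genes. The 18 are 5 genes of pyruvate entry, 12 of the citric acid cycle with the cytosolic partners Idh1 and Mdh1, and Gpd2, the mitochondrial enzyme of the glycerol phosphate shuttle.

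The libraries came from whole islets, the endocrine cell clusters of the pancreas. Islets of Tspan7 knockout mice (genotype Tspan7y/-, X-linked, a tetraspanin of the cell membrane) gave 2 libraries, and islets of wild-type (WT) mice gave 2. The sample labels say knockout and the text on the series says KD. The labels give no age, strain or number of pooled animals, and no label ties a library to its own animal, so the p-values reflect only how far these libraries vary, in part perhaps for technical reasons.

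The knockout libraries held 9377220 and 7855665 counts and the WT libraries 8704271 and 9140275. Tspan7 gave 3 and 2 counts in the knockout libraries, against 1924 and 1795 in the WT libraries. The tissue label was borne out by islet hormone genes. The summed level of 9 beta cell markers was 14780 and 19751 CPM (counts scaled to a common library size and composition) in knockout islets, against 18232 and 15880 CPM in WT islets, with none of the 9 at 0. Sums for alpha cell markers were 7702 and 7219 CPM in knockout islets and 8459 and 6525 CPM in WT islets, and for delta cell markers 1063 and 977 CPM in knockout islets and 1149 and 824 CPM in WT islets. Markers of acinar cells, the enzyme-secreting cells of the pancreas, varied more. The summed level of 10 acinar markers was 1259 and 5908 CPM in knockout libraries, against 2783 and 65.9 CPM in WT libraries, lowest in WT replicate 2. Of 6 macrophage markers all 6 had negative log2 fold changes (knockout over WT), against 49.4% of all tested genes. Their summed levels were 38.1 and 30.1 CPM in knockout islets and 54.1 and 45.9 CPM in WT islets. In edgeR's quasi-likelihood test 4 of the 6 (66.7%) had an unadjusted p under 0.05, against 3.51% of all tested genes. After adjustment 0 were called. For endothelial cells the sums of 6 markers were 279 and 324 CPM in knockout islets and 322 and 335 CPM in WT islets. For stellate cells the sums of 6 markers were 152 and 197 CPM in knockout islets and 200 and 230 CPM in WT islets. For ductal cells the sums were 202 and 214 CPM in knockout islets and 219 and 381 CPM in WT islets. In whole islets, fewer cells of a type and less RNA per cell cannot be told apart, and the part of these other cells in the values of the route was not tested.

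No gene of the route passed the test between knockout and WT islets. All 34 had counts in every library, and 33 passed the filter on low counts, the exception being Hk2. Of these 33, edgeR's quasi-likelihood test called 0 higher and 0 lower at a Benjamini-Hochberg adjusted p under 0.05, where it called 0.00591% of all 16924 tested genes, and every adjusted p was at least 0.9997. At an unadjusted p under 0.05 there was 1 gene, Tpi1, or 3.03% of the 33, against 3.51% of all tested genes. The median log2 fold change, knockout over WT, was -0.04 over the 33 genes, beside 0.003 over all tested genes. It was -0.06 over 15 glycolysis genes and -0.02 over the 18 mitochondrial-side genes. The glycolysis median was -0.15 without WT replicate 1, and the median of all 33 ran from -0.09 without knockout replicate 2 to 0.002 without knockout replicate 1. The mitochondrial-side median was 0.04 without knockout replicate 1 and 0.004 without WT replicate 1.

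Most intervals were narrow enough to bound the difference. In 25 of the 33 genes the 95% confidence interval of the fold change lay within 1.5-fold either way, as it did for 41.3% of all tested genes. These 25 were 17 of the 18 mitochondrial-side genes, all but Idh1, and 8 of the 15 glycolysis genes. The half-width of the interval had a median of 0.35 on the log2 scale and ran from 0.30 to 0.81. The 33 genes and Hk2 together took 0.295% and 0.288% of the counts in the knockout libraries, against 0.297% and 0.313% in the WT libraries.

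**Figure D1:**
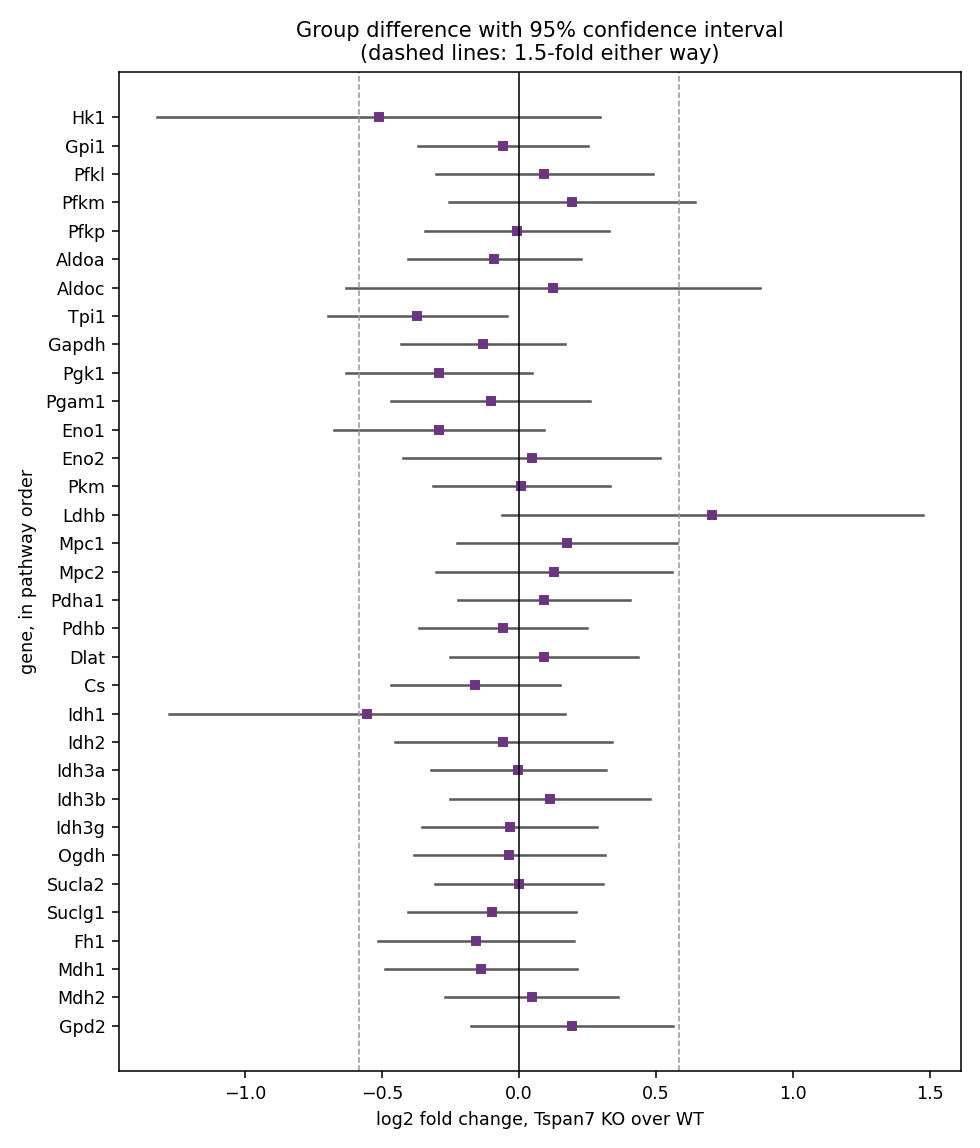
Log2 fold change of each of the 33 tested genes, Tspan7 knockout over WT (horizontal axis), in pathway order from top to bottom. Squares are the fitted values and lines their 95% confidence intervals. Only the interval of Tpi1 (-0.70 to -0.04) leaves out 0, and the widest intervals are those of Hk1, Ldhb, Aldoc and Idh1.

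Levels along the route spanned a wide range. Levels of different genes are compared as CPM per kilobase of annotated exon. Mdh1, the cytosolic malate dehydrogenase of the malate-aspartate shuttle, was highest, at 101 CPM per kilobase in knockout and 111 in WT islets. Aldoa, the aldolase that splits the 6-carbon sugar, followed at 87.5 in knockout and 93.1 in WT islets, and Pkm, pyruvate kinase, at 74.5 in knockout and 74.1 in WT islets. With the longest transcript as the length in place of all annotated exons, Aldoa ranked above Pkm and Mdh1. Ogdh, the rate-controlling 2-oxoglutarate dehydrogenase of the cycle, stood at 48.4 in knockout and 49.6 in WT islets, and the glyceraldehyde phosphate dehydrogenase gene Gapdh at 40.9 in knockout and 44.8 in WT islets. At the low end were Aldoc at 1.05 in knockout and 0.960 in WT islets, Hk1 at 0.679 in knockout and 0.967 in WT islets, and Hk2 at 0.101 in knockout and 0.337 in WT islets.

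**Figure D2:**
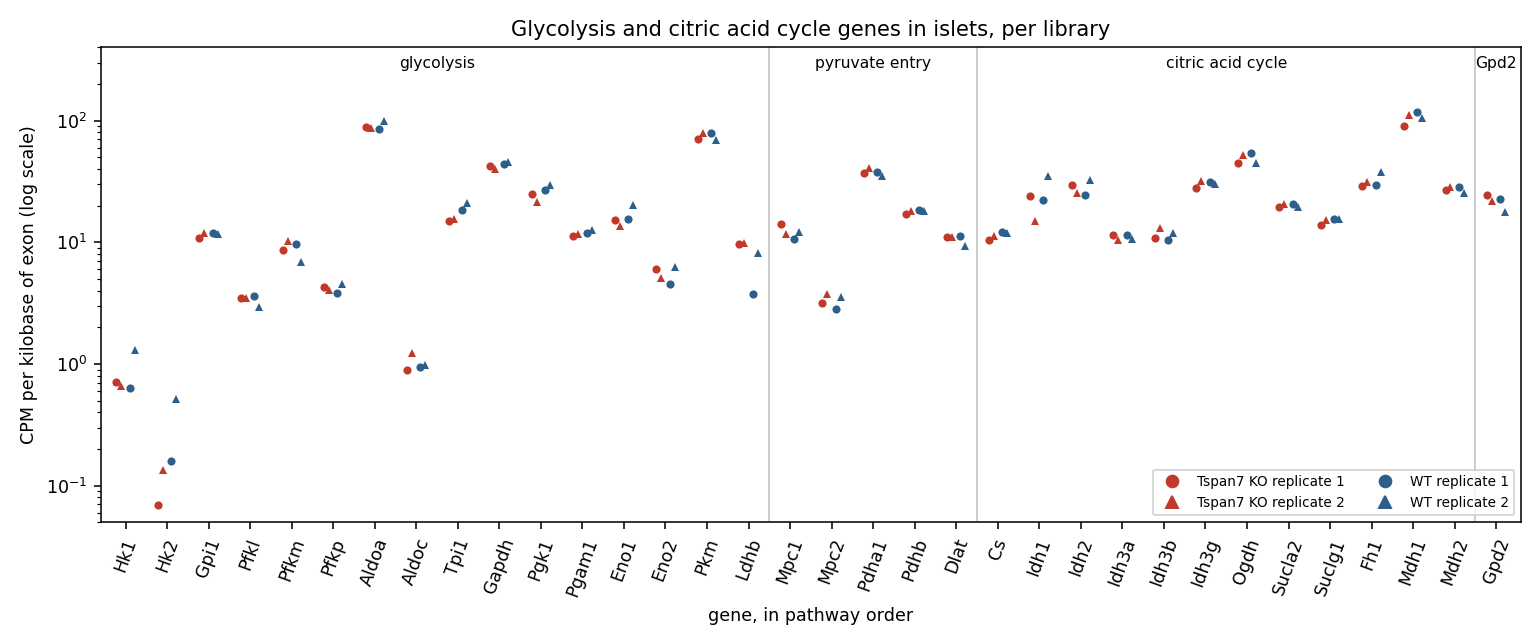
Level of each of the 34 genes as CPM per kilobase of exon (vertical log axis) in pathway order, with 1 point per library. Mdh1, Aldoa and Pkm sit at the top and Aldoc, Hk1 and Hk2 at the bottom, and for most genes the 4 points lie close together.

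In 9 of 11 enzyme families the same gene led in all 4 libraries by CPM per kilobase, and in 8 with the longest transcript as length. Among phosphofructokinases, which commit sugar to glycolysis, the muscle-type Pfkm held 52.9% and 57.4% in knockout libraries and 56.4% and 48.0% in WT libraries. By all annotated exons the platelet-type Pfkp was second at 26.0% and 22.7% in knockout libraries and 22.5% and 31.3% in WT libraries, and the liver-type Pfkl followed with 19.9% to 21.1% over all 4 libraries. By longest transcript Pfkl stood above Pfkp in knockout replicate 2 and WT replicate 1. Aldoa held 98.1% to 98.9% of the aldolases in the 4 libraries, with Aldoc second at 0.964% to 1.38%. Pkm held 96.0% to 96.6% of pyruvate kinase, against 3.42% to 4.04% for the liver-type Pklr. Among phosphoglycerate mutases only Pgam1 and Pgam2 were counted. Pgam1 held 86.1% to 94.4% of these, and Pgam2, which did not pass the filter, gave 5 to 16 counts a library. Bpgm, left out of this share, had a mean of 5.13 CPM per kilobase over the 4 libraries, against 1.25 for Pgam2 and 11.8 for Pgam1.

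Eno1, the widespread enolase, took 63.3% and 64.9% of its family in knockout libraries, below the 70.2% and 69.9% of the WT libraries, and Eno2, the enolase of neurons and endocrine cells, took 25.1% and 24.0% in knockout libraries and 20.5% and 21.8% in WT libraries. The enolase shares of the groups did not overlap. With 2 libraries a group, an exact permutation test of such a share cannot go below p = 0.333 (two-sided), so these shares are given as values.

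**Figure D3:**
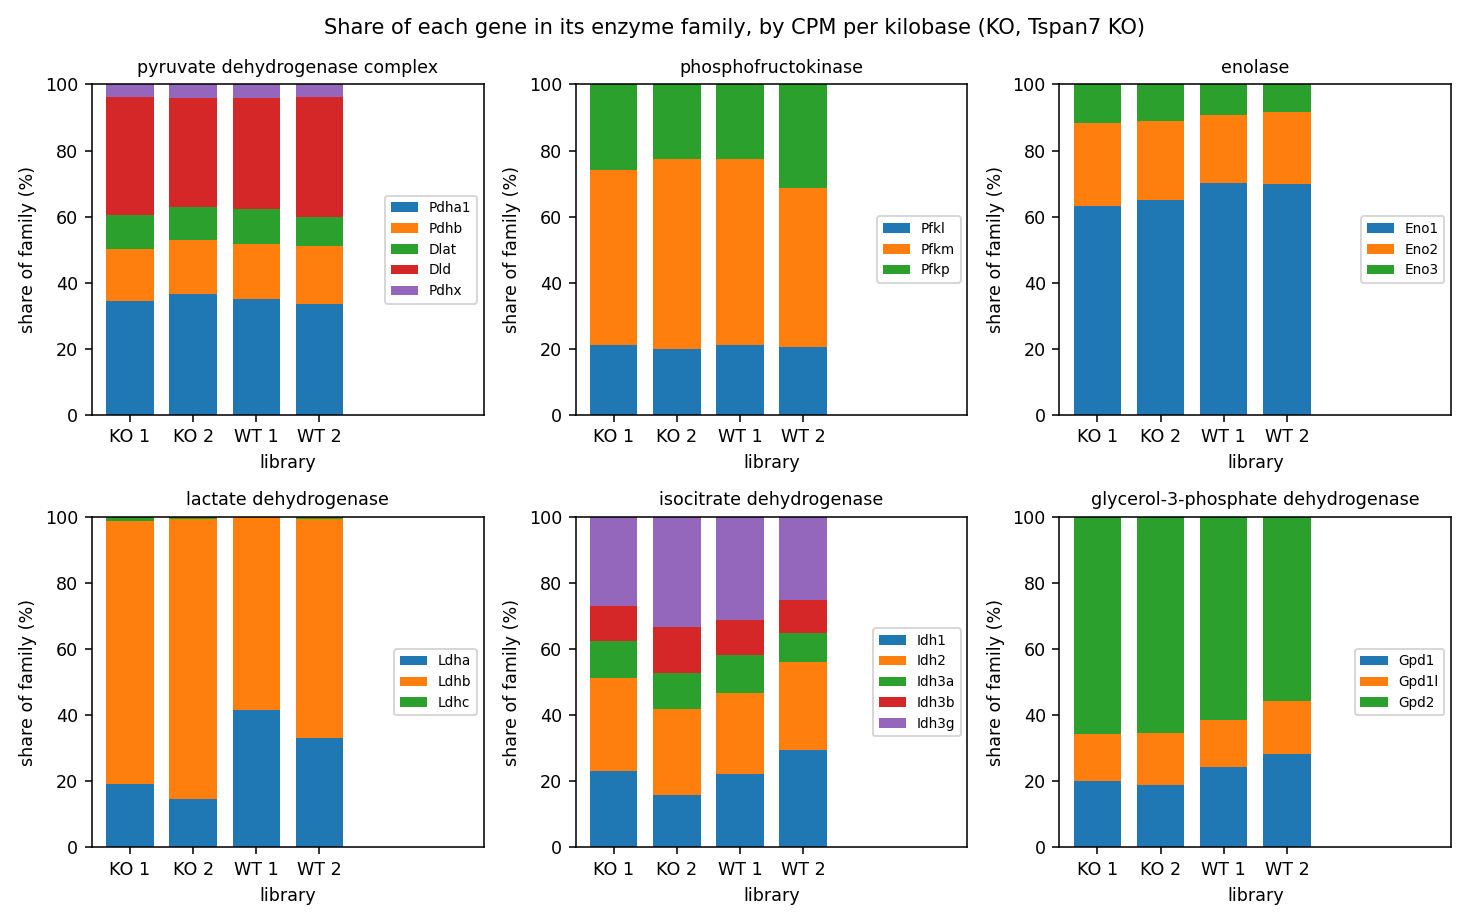
Share of each gene in its enzyme family (vertical axis, percent of CPM per kilobase) in each library, for 6 families, with knockout libraries on the left of each panel. The Pdha1 and Dld parts are close in size in every library, and the Ldha part of the lactate dehydrogenase bar is 19.3% and 14.6% in knockout libraries and 41.6% and 33.2% in WT libraries.

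On the mitochondrial side, no gene led isocitrate dehydrogenase or the pyruvate dehydrogenase complex in all libraries. Both families hold subunits of a single enzyme or complex as well as separate enzymes or shared parts. Sucla2, Mdh1 and Gpd2 each led their families in every library. Isocitrate dehydrogenase has an NAD-dependent form in the cycle, built from Idh3a, Idh3b and Idh3g, and the NADP-dependent enzymes Idh1 of the cytosol and Idh2 of mitochondria. No member led throughout. Idh3g was highest in knockout replicate 2 and WT replicate 1 (33.4% and 31.3%), Idh2 in knockout replicate 1 (28.2%) and Idh1 in WT replicate 2 (29.3%). By longest transcript Idh2 stood above Idh1 in WT replicate 2, at 27.6% against 25.1%. In the pyruvate dehydrogenase complex, Pdha1 (33.4% to 36.6% over the 4 libraries) and the shared subunit gene Dld (33.1% to 36.2%) were alike, while Dlat, the core acetyltransferase, held 8.98% to 10.4%. The ratio of Pdha1 to its partner Pdhb, the alpha and beta subunits of the decarboxylase, was 2.18 and 2.24 in knockout and 2.07 and 1.91 in WT islets. Sucla2, the ATP-forming succinate-CoA ligase subunit, held 68.8% to 72.3% beside the GTP-forming Suclg2. Mdh1 held 77.1% and 79.6% of malate dehydrogenase in knockout libraries and 80.5% and 80.6% in WT libraries, beside the mitochondrial Mdh2. Ogdhl, a relative of Ogdh that was added after its values were seen, had 94.3 and 122 CPM in knockout and 107 and 117 CPM in WT islets.

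The tested genes with the smallest p lay in glycolysis, apart from Idh1. Tpi1, the triose phosphate isomerase, had 41.2 and 42.8 CPM in knockout islets, against 50.8 and 57.9 CPM in WT islets. Both knockout libraries were below both WT libraries. Its log2 fold change was -0.37 ± 0.14 (SE; 95% CI -0.70 to -0.04), and its unadjusted p was 0.0307 (quasi-likelihood test of edgeR, adjusted p = 0.9997). With 1 library left out the log2 fold change ran from -0.47 to -0.27. Pgk1, the phosphoglycerate kinase that makes the first ATP of the pathway, had 56.2 and 47.7 CPM in knockout islets, against 60.5 and 67.0 CPM in WT islets. The groups did not overlap, and the log2 fold change was -0.29 ± 0.15, with an interval of -0.63 to 0.05. It was -0.18 without knockout replicate 2 and -0.41 without knockout replicate 1.

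Eno1 had 82.5 and 73.8 CPM in knockout islets, against 82.9 and 109 CPM in WT islets. Only a narrow gap separated knockout replicate 1 from WT replicate 1, and the log2 fold change of -0.29 ± 0.17 was -0.09 without WT replicate 2. Gapdh measured 174 and 164 CPM in knockout islets and 182 and 189 CPM in WT islets (log2 fold change -0.13 ± 0.13). Pgam1 measured 22.1 and 23.1 CPM in knockout islets and 23.7 and 24.9 CPM in WT islets (-0.10 ± 0.16, and -0.07 without WT replicate 2). Tpi1, Gapdh, Pgk1, Pgam1 and Eno1 are successive steps of lower glycolysis before pyruvate kinase, and in these 5 both knockout libraries lay below both WT libraries, with no call in any. Counting Cs and Suclg1, this order held in 7 of the 33 genes (21.2%), against 15% of all tested genes. The opposite order held in 1 of the 33 (3.03%), against 15.3% of all tested genes. Together the groups did not overlap in 8 of the 33 genes (24.2%), against 30.3% of all tested genes. At the final step, Pkm had 351 and 394 CPM in knockout islets and 398 and 344 CPM in WT islets, a log2 fold change of 0.01 with an interval of -0.32 to 0.33. The annotation places 15.3% of the exon bases of Pkm under another gene on the same strand, and 16.1% of those of Pdha1 and 23.1% of those of Mpc1 under genes on the opposite strand, and by these bases 11.5% of Gpi1 (opposite strand) and 10.2% of Pfkm (same strand) are overlapped too. These counts are therefore uncertain, by an amount the share of bases does not give: the gene that overlaps Pdha1 had 9596 counts over the 4 libraries, against 4901 for Pdha1.

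The gene above the others in fold change was Ldhb, the lactate dehydrogenase subunit of heart, at 15.3 and 15.4 CPM in knockout islets, against 5.92 and 12.8 CPM in WT islets. Both knockout libraries were above both WT libraries, but WT replicate 1 alone was far lower. The log2 fold change was 0.71 ± 0.33 (95% CI -0.06 to 1.47), 0.26 without WT replicate 1 and 1.37 without WT replicate 2. Its partner Ldha, the muscle-type subunit that beta cells keep low, went the other way in its values, with 7.79 and 5.57 CPM in knockout islets and 8.87 and 13.5 CPM in WT islets (log2 fold change -0.74 ± 0.29, unadjusted p = 0.0345, adjusted p of 0.9997 in edgeR's test). Without WT replicate 2 the value of Ldha was -0.40, and without knockout replicate 1 it was -1.01. Per kilobase, Ldhb stood 4.13 and 5.82 times above Ldha in knockout libraries and 1.41 and 1.99 times above it in WT libraries. Ldhb thus held 79.6% and 84.7% of the family in knockout libraries and 58.4% and 66.2% in WT libraries, without overlap. With the longest transcript as length the shares of Ldhb were 72.5% and 78.8% in knockout libraries and 48.1% and 56.6% in WT libraries. These are low genes, at 50 to 147 counts of Ldhb and 42 to 127 of Ldha in a library. Ldhd, which oxidizes D-lactate, had 13.6 and 16.7 CPM in knockout islets and 9.11 and 12.2 CPM in WT islets (log2 fold change 0.50 ± 0.23, and 0.30 without WT replicate 1).

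**Figure D4:**
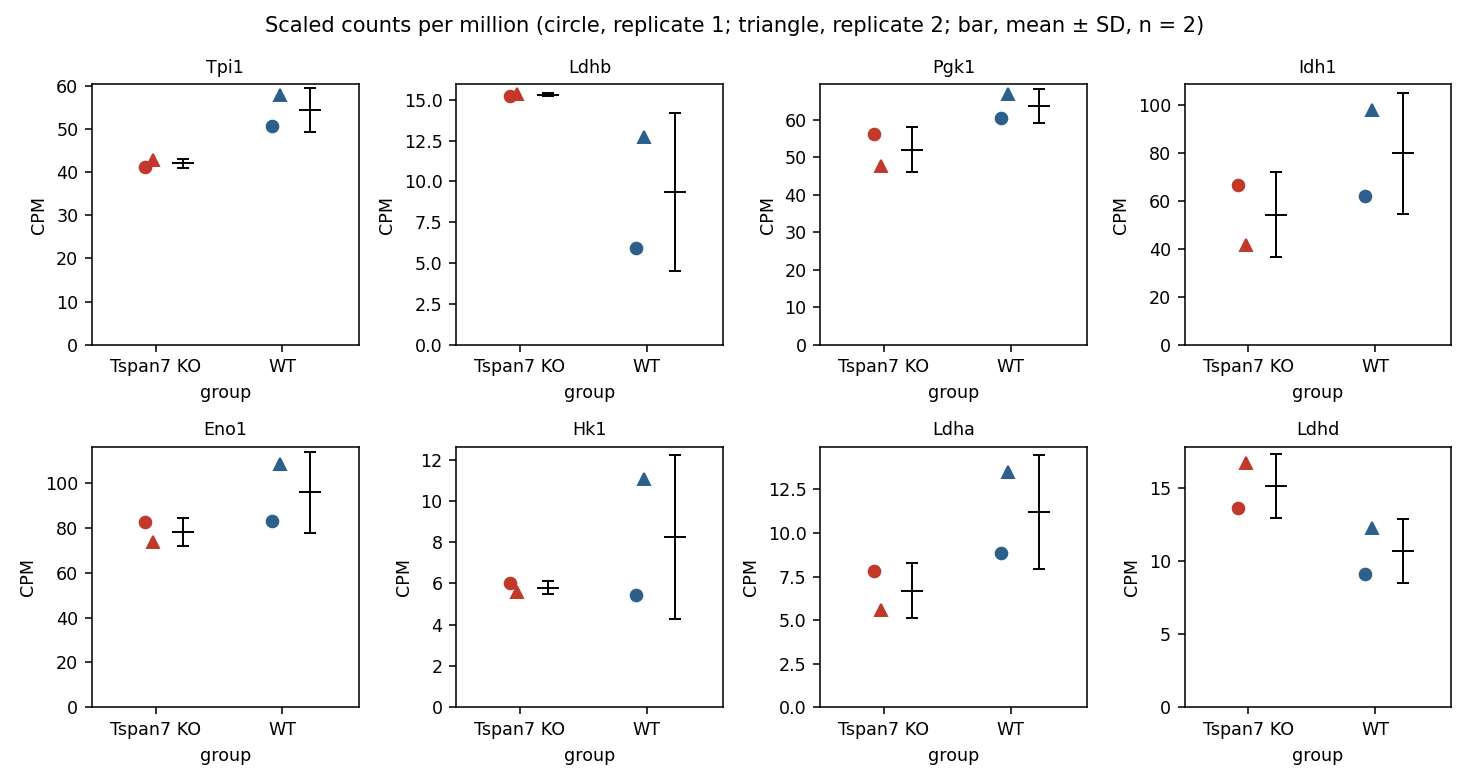
CPM of the 6 genes of the route with the smallest unadjusted p, and of Ldha and Ldhd, in each library (vertical axis; knockout left, WT right; circles are replicate 1, triangles replicate 2, bars mean ± SD, n = 2). Tpi1, Ldhb, Pgk1, Eno1, Ldha and Ldhd do not overlap between groups, and Hk1 and Idh1 do.

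The promoters of Tpi1, Pgk1 and Ldhb are shown because these genes had the 3 smallest p of the route and 1 promoter each in the RefSeq table used (build GRCm38.p6, other than the build of the counts). Each window runs from 250 bases before to 50 bases after the annotated start, 5′ to 3′ on the gene's strand. Capitals mark ACGTG and GCGTG, the core letters of the hypoxia response element known from glycolysis genes, and CACGT and CACGC, the same letters on the other strand. An ACGTG and a CACGT that overlap as CACGTG were both counted.
Tpi1 promoter, chr6:124814109-124814408, minus strand: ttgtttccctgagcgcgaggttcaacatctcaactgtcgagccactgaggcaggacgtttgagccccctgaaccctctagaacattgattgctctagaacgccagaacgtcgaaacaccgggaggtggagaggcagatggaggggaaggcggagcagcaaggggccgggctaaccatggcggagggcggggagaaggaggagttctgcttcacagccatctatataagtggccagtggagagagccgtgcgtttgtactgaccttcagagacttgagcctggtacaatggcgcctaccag
Pgk1 promoter, chrX:106186850-106187149, plus strand: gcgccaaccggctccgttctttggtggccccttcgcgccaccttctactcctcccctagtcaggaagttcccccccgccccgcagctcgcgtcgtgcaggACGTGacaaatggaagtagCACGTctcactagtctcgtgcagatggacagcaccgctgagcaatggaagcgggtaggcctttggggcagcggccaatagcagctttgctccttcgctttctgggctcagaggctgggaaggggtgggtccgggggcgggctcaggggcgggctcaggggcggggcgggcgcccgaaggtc
Ldhb promoter, chr6:142507908-142508207, minus strand: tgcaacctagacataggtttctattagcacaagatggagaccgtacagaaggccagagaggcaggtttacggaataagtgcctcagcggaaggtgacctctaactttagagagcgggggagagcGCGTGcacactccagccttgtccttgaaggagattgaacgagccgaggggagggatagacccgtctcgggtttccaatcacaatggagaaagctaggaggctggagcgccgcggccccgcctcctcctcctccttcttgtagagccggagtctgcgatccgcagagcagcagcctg
The Pgk1 window held 2 matches and the Ldhb window 1, and Tpi1 held 0. Of 32851 promoter windows in the table, 43.8% held at least 1 match, and 38 of the 51 windows of 33 genes of the route did (74.5%), several genes having more than 1 window. A match is a description of the letters only. Among 11 tested genes of the hypoxia response outside glycolysis the median log2 fold change was -0.001, with 5 above 0, 6 below 0 and 0 called. The 2 of smallest unadjusted p are named. Hilpda, a lipid droplet gene induced by hypoxia, had 1.87 and 2.12 CPM in knockout islets and 3.79 and 3.93 CPM in WT islets. It rested on 16 to 37 counts a library (log2 fold change -0.95 ± 0.33, adjusted p of 0.9997 in edgeR's test). P4ha1, a collagen prolyl hydroxylase subunit, had 74.3 and 79.5 CPM in knockout islets and 94.7 and 86.8 CPM in WT islets (-0.24 ± 0.14).

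Hk1 and Idh1 had large fitted values that changed in size with 1 library left out, and that of Hk1 also changed in sign. Hk1, the high-affinity hexokinase of most tissues, had 6.02 and 5.57 CPM in knockout islets, against 5.44 and 11.1 CPM in WT islets, so that WT replicate 2 alone was high. Its log2 fold change of -0.51 ± 0.35 was 0.09 without WT replicate 2. Idh1, which makes cytosolic NADPH, had 66.9 and 41.8 CPM in knockout islets, against 62.0 and 97.9 CPM in WT islets. The groups overlapped, and the log2 fold change of -0.55 ± 0.30 was -0.19 without WT replicate 2 and -0.93 without knockout replicate 1. Hk2, the insulin-responsive hexokinase of muscle and fat that beta cells keep low, gave 4 and 6 counts in knockout libraries and 8 and 29 in WT libraries. WT replicate 2 was also the highest of the 4 for Slc2a3, a high-affinity glucose transporter, with 2.70 and 1.59 CPM in knockout islets and 2.84 and 7.86 CPM in WT islets (log2 fold change -1.30 ± 0.53, and -0.38 without WT replicate 2). This library had the lowest acinar sum (65.9 CPM) and the highest ductal (381 CPM), stellate (230 CPM) and endothelial (335 CPM) sums. Of the ductal sum, 172 CPM was Spp1, singled out after its values were seen, against 19.1 to 48.1 CPM in the other libraries. The ductal marker Sox9 was lowest in this library, at 1.17 CPM. Of the stellate sum, 184 CPM was Rgs5, and the stellate marker Acta2 was lowest in this library, at 1.28 CPM. The endothelial sum was near the 324 CPM of knockout replicate 2. The endothelial marker Kdr was lowest in WT replicate 2, at 90.5 CPM, close to the 90.6 CPM of knockout replicate 1. The markers of a cell type thus did not all move together. The part of these cells in the values was not tested.

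The gap between libraries of a group is set beside the difference between groups. The WT gap exceeded the difference of the group means in 24 of the 33 genes (72.7%), against 64.5% of all tested genes with counts in every library. The knockout gap did so in 20 (60.6%), against 63.2%. Both shares were near those of all genes. The median size of the log2 ratio was 0.14 between the knockout libraries, 0.20 between the WT libraries and 0.10 between the groups. The group ratio is between means of 2 libraries, which vary less than the single libraries of the other ratios. WT replicate 2 held the highest of the 4 values in 13 of the 33 genes and the lowest in 7. Knockout replicate 1 held the highest in 3 and the lowest in 12.

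**Figure D5:**
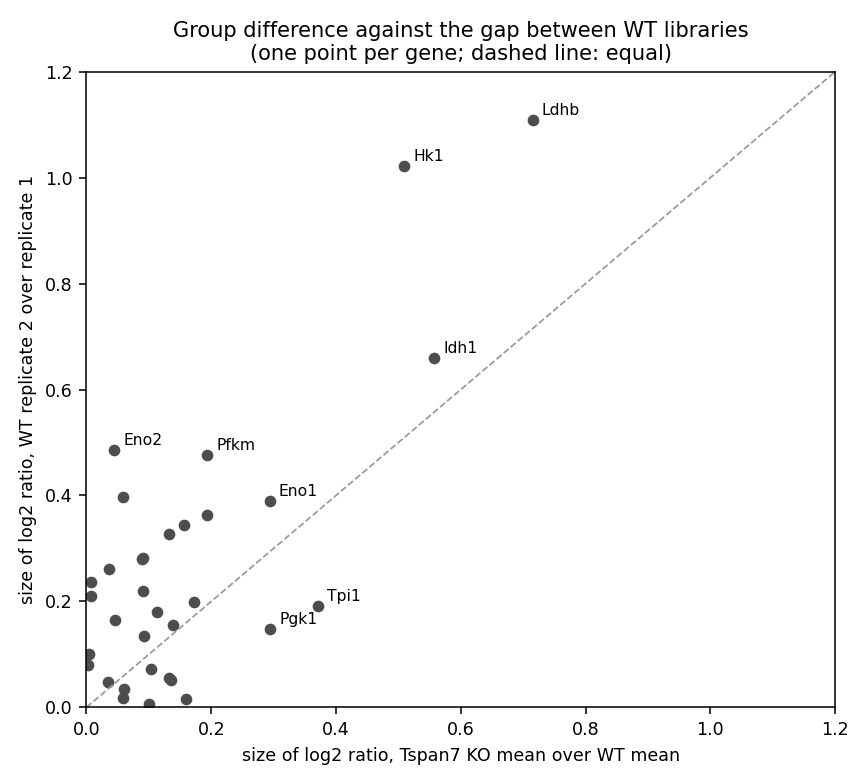
Size of the log2 ratio between the WT libraries (vertical axis) against that between the knockout mean and the WT mean (horizontal axis), 1 point per tested gene. Points above the dashed line differ more between single WT libraries than between group means, as Ldhb, Hk1 and Idh1 do, and Tpi1 and Pgk1 lie below it.

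All 5 genes of pyruvate entry had intervals within 1.5-fold either way. Mpc1 and Mpc2 form the mitochondrial pyruvate carrier. Mpc1 had 29.3 and 24.3 CPM in knockout islets and 22.1 and 25.4 CPM in WT islets, and Mpc2 had 23.1 and 27.8 CPM in knockout islets and 20.6 and 25.8 CPM in WT islets. The log2 fold change of Mpc1 was 0.17 ± 0.17 (0.03 without knockout replicate 1) and that of Mpc2 was 0.13 ± 0.19 (-0.03 without WT replicate 1). Pdha1 measured 145 ± 10.1 CPM in knockout and 136 ± 8.98 CPM in WT islets, Pdhb 67.8 ± 3.41 CPM in knockout and 70.7 ± 0.611 CPM in WT islets, and Dlat 53.7 ± 0.00739 CPM in knockout and 50.5 ± 6.92 CPM in WT islets (SD, n = 2 each). For these 3 genes of the dehydrogenase complex the intervals together ran from -0.37 to 0.43.

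In the citric acid cycle 10 of 12 genes had a log2 fold change below 0, against 49.4% of all tested genes, of -0.16 or nearer 0 apart from Idh1. This count rested on single libraries: 6 of the 12 were below 0 without knockout replicate 1 and 7 without WT replicate 1, and 8 with no filter on low counts. Cs, the citrate synthase that admits acetyl units to the cycle, had 59.8 and 64.7 CPM in knockout islets and 69.9 and 69.2 CPM in WT islets. The groups did not overlap, and the log2 fold change was -0.16 ± 0.13 (95% CI -0.47 to 0.15), and -0.10 without knockout replicate 1. Suclg1, the shared subunit of succinate-CoA ligase, had 64.5 and 69.9 CPM in knockout islets and 71.8 and 72.2 CPM in WT islets (-0.10 ± 0.13, and -0.04 without knockout replicate 1). Ogdh had 244 and 284 CPM in knockout islets and 295 and 246 CPM in WT islets, with overlap and a log2 fold change of -0.04 ± 0.15. Fh1, the fumarase, stood at -0.16 ± 0.16 (0.02 without WT replicate 2) and Mdh2 at 0.05 ± 0.14. Sucla2 was closest to 0, with 77.8 and 82.1 CPM in knockout islets, 82.2 and 77.8 CPM in WT islets and an interval of -0.31 to 0.30.

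Among the shuttle genes, Mdh1 had 231 and 286 CPM in knockout islets and 300 and 270 CPM in WT islets (log2 fold change -0.14 ± 0.15). Gpd2 had 159 and 144 CPM in knockout islets and 149 and 116 CPM in WT islets (0.19 ± 0.16, and 0.02 without WT replicate 2). Gpd1, its cytosolic partner in the shuttle, had 22.1 and 18.8 CPM in knockout islets and 26.9 and 26.8 CPM in WT islets (-0.39 ± 0.17, unadjusted p = 0.0482, adjusted p of 0.9997 in edgeR's test). Gpd2 held 65.7% and 65.4% of its family in knockout libraries and 61.4% and 55.6% in WT libraries. These shares did not overlap, nor did those of Eno1, Ldhb and Mdh1 in their families. By level rather than share, the groups did not overlap in 30.3% of all tested genes. For Pfkm, Aldoa, Pgam1, Pkm and Sucla2, which also led their families, the shares overlapped between groups. An exact permutation test of 2 against 2 libraries cannot go below p = 0.333 (two-sided), so no group difference is read from these shares.

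Of 67 further genes of the same pathways, 58 were tested and 0 were called. At an unadjusted p under 0.05 there were 1 higher and 4 lower, or 8.62% of the 58, against 3.51% of all tested genes. The median log2 fold change was -0.02. Slc2a2, the main islet glucose transporter, had 582 and 943 CPM in knockout islets and 721 and 517 CPM in WT islets. The spread between its libraries was wide and the groups overlapped (0.30 ± 0.26, and -0.09 without knockout replicate 2). Pcx, pyruvate carboxylase, had 58.5 and 87.6 CPM in knockout islets and 70.6 and 67.3 CPM in WT islets (0.08 ± 0.20, and -0.24 without knockout replicate 2). Pdp2, a phosphatase that activates pyruvate dehydrogenase, had 36.8 and 40.6 CPM in knockout islets and 26.9 and 32.3 CPM in WT islets (0.38 ± 0.16, unadjusted p = 0.0421, adjusted p of 0.9997 in edgeR's test), and its relative Pdp1 stood at 0.39 ± 0.27 (0.08 without WT replicate 2).

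Me2, the mitochondrial malic enzyme, had 22.3 and 17.9 CPM in knockout islets and 27.7 and 27.0 CPM in WT islets (-0.44 ± 0.18), and Me1, the cytosolic one, had 32.0 and 26.2 CPM in knockout islets and 32.5 and 47.8 CPM in WT islets (-0.46 ± 0.21, and -0.16 without WT replicate 2). Slc16a3, a lactate exporter, had 4.05 and 2.39 CPM in knockout islets and 3.43 and 5.74 CPM in WT islets, and Slc25a11, the mitochondrial oxoglutarate carrier, had 28.4 and 33.8 CPM in knockout islets and 35.5 and 31.6 CPM in WT islets. Both overlapped between groups. By list, the 12 tested glycolysis isoforms outside the 34 genes had 0 called and a median log2 fold change of 0.01, and the 13 genes of glucose entry and regulation 0 called and -0.08. The 9 genes that complete or regulate pyruvate dehydrogenase had 0 called and 0.01, the 14 of the cycle and anaplerosis 0 called and -0.06, and the 10 of the shuttles 0 called and -0.01.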

How the data were processed

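RNA-seq of whole islets gave 2 Tspan7 knockout and 2 WT libraries. The authors deposited unnormalized read counts for each Ensembl identifier. HISAT2, featureCounts and build GRCm39 appear, without versions, per the submitters' processing notes. For the annotation release and the strand setting, the sources used here are silent. Symbols for 52403 of 52636 identifiers came from GENCODE M21 (GRCm38), used for names, exon lengths and neighbours only. Aldoa had 2 identifiers, and the one with 9238 counts over all libraries was used, not the one with 23. The kit marks strand, but 12 members share exon bases with a gene on the opposite strand, so their counts are uncertain, as are those of genes with near-identical copies; 14 named copies held 92 counts in all.

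Counts were analysed with edgeR 4.0.16 in R 4.3.3: filterByExpr (minimum count 10, 16924 genes kept), TMM scaling, the robust quasi-likelihood test, two-sided, with no covariate. SE and 95% intervals come from that fit. CPM is scaled by TMM, and divided by the kilobases of all annotated exons where genes are compared. Alternatives used limma 3.58.1 and DESeq2 1.42.0, other scalings, no filter, the replicate number as a block, and each library left out. The code was tested on simulated counts. At these depths 3 counts, the detection floor, are 0.320 to 0.382 CPM; this covers counting error only. Pooled over genes, the libraries of a group differed by more than counting error (chi-square over its degrees of freedom, 13.3 in knockout and 12.9 in WT). Genes with large gaps weigh most in this sum, such as the acinar marker Pnlip, with 4327 and 100 counts in the WT libraries. It does not give the spread of single genes. Each library was handled as 1 sample. This excess does not tell biological from technical variation, so independence of the libraries was assumed and not shown.

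The members and lists were chosen with earlier results of these data known. Values per library are given for the 6 members of smallest p, the 2 most abundant of glycolysis and of the mitochondrial side, the leading and second gene of each family, up to 2 genes of each other list with the smallest p, and Tspan7, Slc2a2, Ldha and Pcx; some genes under the rule are not reported here, and other genes were named after their values were seen.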

Additional observations from a re-analysis of the deposited data

How the results depend on the processing

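edgeR's quasi-likelihood test called 1 gene, Tspan7, over all genes, as did other scalings (RLE, upper quartile) and limma-voom. The count was 62 with no low-count filter, 16 with the likelihood ratio test and 6 with DESeq2. With the replicate number as a block (replicate block) it was 6. Deviations of same-numbered libraries correlated at -0.31, so the numbers were not taken to pair samples; the crossed pairing, added after seeing the data, gave 2. With each library left out in turn the count ran from 1 to 48, reached without WT replicate 1. The cause was not tested. Genes of the route called stayed at 0 in every setting, with a lowest adjusted p of 0.22. The glycolysis median ran from -0.15 to -0.044 with a library left out. Of 384 values of 48 single genes under the 8 other settings, 381 kept direction and call, and with no filter Pfkp was 0.0049, Idh3a 0.0069 and Sucla2 0.0092. With a library left out, 32 of 192 values in 23 genes changed sign and 0 changed call. The log2 fold changes of these 23 ran as follows: Hk1 -0.93 to 0.092, Gpi1 -0.13 to 0.0098, Pfkl -0.044 to 0.24, Pfkm -0.028 to 0.45, Pfkp -0.12 to 0.12, Aldoa -0.20 to 0.022, Aldoc -0.11 to 0.35, Eno2 -0.18 to 0.31, Pkm -0.095 to 0.11, Mpc2 -0.026 to 0.30, Dlat -0.045 to 0.23, Idh2 -0.24 to 0.15, Idh3a -0.076 to 0.066, Idh3b -0.029 to 0.24, Idh3g -0.13 to 0.060, Ogdh -0.16 to 0.097, Sucla2 -0.042 to 0.039, Fh1 -0.32 to 0.025, Mdh1 -0.30 to 0.0099, Mdh2 -0.036 to 0.13, Slc2a2 -0.089 to 0.61, Pcx -0.24 to 0.35, Slc25a11 -0.24 to 0.015. With 2 libraries a group, values as large as 0.71 for Ldhb and -1.30 for Slc2a3 did not pass. Pooled over genes, the spread between libraries of a group exceeded counting error, which does not give the spread of single genes. What limited the calls was not tested.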
